A study of Mus musculus with 57 samples.

Results

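The sarcomeric myosin heavy chain genes encode the motor proteins of striated muscle. The 9 members, Myh1, Myh2, Myh3, Myh4, Myh6, Myh7, Myh8, Myh13 and Myh7b, were taken by name out of 26089 curated RefSeq genes on the autosomes and X, with earlier results of these data known. The histone H3 marks H3K4me3, H3K27ac and H3K27me3 had been profiled by chromatin immunoprecipitation and sequencing, in which DNA bound to a modified histone is pulled down with an antibody and sequenced. The chromatin came from snap frozen brain cortex and gastrocnemius, a calf muscle, of 10 PSAPP mice, a transgenic model of Alzheimer's disease, and of the 10 animals 9 gave both tissues. Each mark thus had 9 cortex and 10 gastrocnemius libraries, 57 in all.

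All animals were 13 months old, carried the PSAPP transgenes and had been singly housed on a modified AIN-93 diet with a fixed daily intake, so no group here is free of the transgenes, and cortex and gastrocnemius of the same kind of animal were the groups compared. Both sexes were pooled, because the sample labels give no sex. The tissues are mixtures of cells. A change in the share of nuclei that carry a mark and a change in its level per nucleus cannot be told apart in such material.

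Adult skeletal muscle is built from fibre types that differ in the myosin heavy chain they use. Myh2 (type IIa), Myh1 (type IIx) and Myh4 (type IIb) encode the fast chains of the adult limb, Myh7 the slow chain, which is also the beta chain of the heart, and Myh6 the alpha chain of the heart. Myh3 and Myh8 encode the embryonic and the perinatal chain, Myh13 the chain of extraocular and laryngeal muscle, and Myh7b an ancient slow-type chain. H3K4me3 is known for marking the starts of active genes, H3K27ac active promoters and enhancers, and H3K27me3 chromatin silenced by Polycomb complexes.

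The 6 skeletal genes lie in a row on the plus strand of chromosome 11 (mm10), Myh3 at chr11:67078300-67102291, Myh2 at chr11:67171027-67197517, Myh1 at chr11:67200102-67224575, Myh4 at chr11:67237812-67260447, Myh8 at chr11:67277124-67308634 and Myh13 at chr11:67327103-67371587. Myh6 (chr14:54941921-54966607) and Myh7 (chr14:54970684-54994626) lie head to tail on the minus strand of chromosome 14, with 4077 bases from the end of Myh7 to the start of Myh6. Myh7b (chr2:155611243-155634307, plus strand) is on its own on chromosome 2. The genes are 22.6 kb (Myh4) to 44.5 kb (Myh13) long with 39 to 42 exons.

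The 250 bases before the annotated start of Myh2, Myh1, Myh4 and Myh8 are shown because these promoters had a stretch in common. The RefSeq promoter table (GRCm38.p6) matched all 9 members, and the sequences are on the plus strand, 5′ to 3′, at chr11:67170777-67171026, chr11:67199852-67200101, chr11:67237562-67237811 and chr11:67276874-67277123. Capitals mark TTCTAATTATATCC and, in Myh1 and Myh4, TATAAA.
Myh2: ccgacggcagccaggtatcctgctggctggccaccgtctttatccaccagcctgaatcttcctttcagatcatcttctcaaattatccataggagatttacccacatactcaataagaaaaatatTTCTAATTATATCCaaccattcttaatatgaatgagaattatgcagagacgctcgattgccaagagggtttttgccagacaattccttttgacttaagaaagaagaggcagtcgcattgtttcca
Myh1: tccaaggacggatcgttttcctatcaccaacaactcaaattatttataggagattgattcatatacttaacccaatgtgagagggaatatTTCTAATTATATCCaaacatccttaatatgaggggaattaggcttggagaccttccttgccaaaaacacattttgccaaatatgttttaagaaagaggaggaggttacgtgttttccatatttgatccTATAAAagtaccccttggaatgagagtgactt
Myh4: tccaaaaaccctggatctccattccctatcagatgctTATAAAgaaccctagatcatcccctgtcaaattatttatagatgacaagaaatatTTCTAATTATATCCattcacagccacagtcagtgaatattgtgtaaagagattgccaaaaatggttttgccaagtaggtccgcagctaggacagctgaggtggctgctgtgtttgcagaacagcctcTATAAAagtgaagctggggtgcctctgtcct
Myh8: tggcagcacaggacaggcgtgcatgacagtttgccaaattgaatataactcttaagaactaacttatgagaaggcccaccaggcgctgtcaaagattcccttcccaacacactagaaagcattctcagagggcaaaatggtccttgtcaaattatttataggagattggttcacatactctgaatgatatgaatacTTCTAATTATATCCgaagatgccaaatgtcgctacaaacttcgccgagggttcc
Searched on both strands, TTCTAATTATATCC occurred in these 4 promoters and in no other of 32817 (0.0122%), beginning 125 bases before the start in Myh2, 160 in Myh1, 158 in Myh4 and 54 in Myh8. The stretch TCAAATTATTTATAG lay upstream of it in Myh1, Myh4 and Myh8, which were the 3 promoters that held it. Both were found by comparing these promoters after the marks had been seen, and they are descriptions of the letters only. TATAAA, which 12.4% of all promoters hold on either strand, began 32 bases before the start of Myh1, 31 before Myh4 and 29 before Myh3. The opposite strand of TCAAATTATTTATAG also holds TATAAA. G and C made up 36% of the Myh1 window, 41.2% of Myh2, 42% of Myh4 and 42.4% of Myh8, against a median of 52.4% over all promoters.

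Myh6, Myh7 and Myh7b each carry a microRNA hairpin outside their curated exons. Their guide strands as listed by RefSeq are shown because Mir208a and Mir208b, in Myh6 and Myh7, share a seed (bases 2 to 8, in capitals), and the seed of Mir499 in Myh7b begins with the same letters.
mmu-miR-208a-3p: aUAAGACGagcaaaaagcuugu
mmu-miR-208b-3p: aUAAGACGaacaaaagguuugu
mmu-miR-499-5p: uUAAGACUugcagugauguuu

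The deposited values are peaks called in each library on its own, with the reads in each peak. Each peak's reads were taken as spread evenly over the peak and shared out by overlap. They were summed within 1 kb of the transcription start (TSS) and over the gene body, from 1 kb after the start to the annotated end. Sums are given in reads per 1 M reads in autosomal peaks and per kb (RPM per kb). A window wholly inside a wide peak thus has the mean level of that peak. A value of 0 means that no peak was called in the window, not that no read lay there. Where tissues are said not to overlap, the share of all genes without overlap is not given. Tests on reads covered genes with a peak in at least 3 libraries of a tissue, so a gene called in fewer than 3 libraries of the other tissue entered through the tissue where it is high, and its direction was fixed by the filter. Reads in peaks ran from 9.16 to 19 M for H3K4me3, from 3.94 to 27.3 M for H3K27ac and from 2.99 to 18.2 M for H3K27me3. The TSS windows of 7 members shared no stretch of 51 bases with another member, while up to 6.56% of such stretches were shared between gene bodies, the highest share being in Myh7, with Myh6.

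The tissues carried the marks of their labels. Of 6 neuronal markers, Rbfox3, Snap25, Camk2a and Gad1 had no H3K4me3 peak at the TSS in any gastrocnemius library, and the summed H3K4me3 level of the list was 53.9 to 80.0 RPM per kb in cortex and 3.87 to 7.52 in gastrocnemius. Of 6 myofibre markers, Ckm, Ttn and Mb had none in any cortex library, and the list summed to 1.87 to 4.95 in cortex and 49.2 to 67.6 in gastrocnemius. Of 4 cardiomyocyte markers, Nppa, Myl7 and Tnni3 had no H3K4me3 peak in either tissue. The remaining marker, Ryr2, had one in every cortex library. This list summed to 10.8 to 20.2 in cortex and 0 to 1.79 in gastrocnemius. The summed levels of the other marker lists, of 4 genes each, were 2.93 to 5.0 in cortex and 7.54 to 11.2 in gastrocnemius for smooth muscle, 1.80 to 4.82 and 10.2 to 17.3 for satellite cells, 18.1 to 23.8 and 28.6 to 47.5 for endothelium, 31.4 to 40.2 and 23.1 to 38.3 for Schwann cells, and 0 and 7.35 to 14.2, all from Fabp4, for adipocytes. The deposited names of 2 cortex and 4 gastrocnemius libraries of each mark hold an animal code with an S, which the labels do not explain. In H3K27me3 these 4 (replicates 5, 6, 9 and 10) were the deepest gastrocnemius libraries, with 7710285 to 18247332 reads in peaks against 2994888 to 5862998 in the other 6.

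The adult fast genes were the members with H3K4me3 at the start in every gastrocnemius library. Myh2, Myh1 and Myh4 had a peak within 1 kb of the TSS in all 10 gastrocnemius libraries and in 0 of 9 cortex libraries, a pattern seen in 1.19% of all genes. The 3 passed Fisher's exact test on the calls (adjusted p = 0.000344 for each), with 2.23% of all genes called in this direction, and 0 members were called higher in cortex, against 3.38%. Myh3, Myh8, Myh13 and Myh6 had no H3K4me3 peak at the start in either tissue, and no member had one in cortex.

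**Figure D1:**
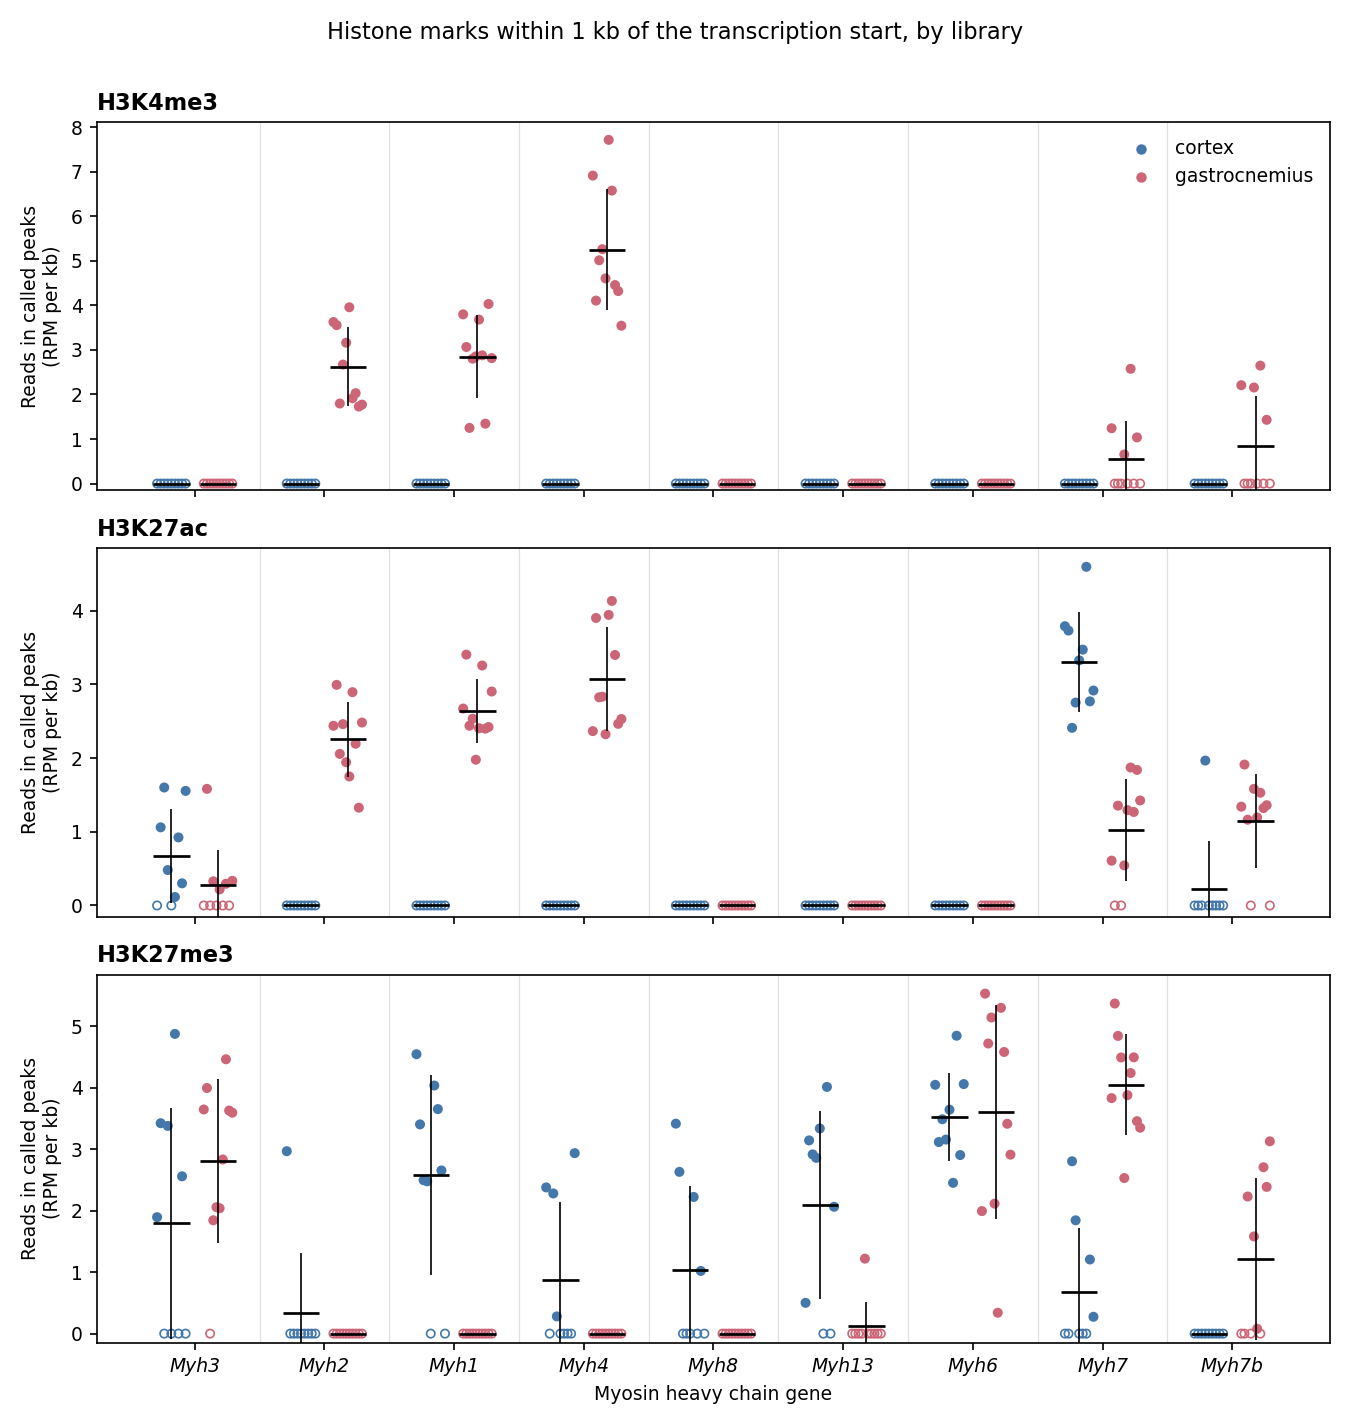
Reads in called peaks within 1 kb of the TSS (RPM per kb, linear axis from 0) for each of the 9 genes and 3 marks, 1 point per library, 9 of cortex in blue and 10 of gastrocnemius in red. Open points are libraries without a called peak, and bars give the mean and SD. H3K4me3 and H3K27ac stood above 1 RPM per kb at Myh2, Myh1 and Myh4 in every gastrocnemius library and in no cortex library.

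At Myh4, the type IIb gene, the H3K4me3 level at the TSS in gastrocnemius ran from 3.54 through a median of 4.81 to 7.72 RPM per kb (mean 5.25 ± 1.37, SD, n = 10). Myh1 ran from 1.25 through 2.87 to 4.03 (2.85 ± 0.935, n = 10). Myh2 ran from 1.73 through 2.35 to 3.96 (2.62 ± 0.882, n = 10). With no cortex library called at any of them, the tissues did not overlap. Myh4 was above Myh1 in 10 of 10 libraries (mean log2 difference of level 0.90, exact sign-flip test over animals, adjusted p = 0.00781). Myh1 and Myh2 did not differ beyond their spread (0.10, Myh1 higher in 5 of 10, adjusted p = 0.607), and Myh2 was above Myh7b, the next in order, in 9 of 10 (adjusted p = 0.0117). Differences of level were taken as log2 with 0.1 RPM per kb added, and none is given for Myh7b, which had no peak in 6 of the 10. Without the 4 libraries with an S code none of the 4 neighbouring pairs passed, with 6 libraries left. Myh4 was above Myh1 in all 6. With 6 libraries a single pair cannot pass the adjustment over 4 pairs even at the smallest p of this test.

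H3K27ac was laid out alike at these starts. Its TSS level in gastrocnemius ran from 2.32 through 2.83 to 4.13 RPM per kb at Myh4 (3.07 ± 0.709), from 1.98 through 2.49 to 3.40 at Myh1 (2.64 ± 0.433) and from 1.33 through 2.32 to 2.99 at Myh2 (2.25 ± 0.510, n = 10 each). No cortex library had a peak there (Fisher's exact test, adjusted p = 0.000254 for each), and with Myh7b 4 members were called higher in gastrocnemius, against 2.71% of all genes, and 0 higher in cortex, against 6.24%. A peak in every gastrocnemius and no cortex library was found at 1.15% of all genes. Within gastrocnemius Myh4 was above Myh1 in 8 of 10 libraries (mean log2 difference 0.19, exact sign-flip test, adjusted p = 0.0716) and Myh1 above Myh2 in 10 of 10 (0.24, adjusted p = 0.00977).

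These levels were low among genes. Each level is an average over the width of its peak, and the part of peak width in the ranks was not tested. Of 15712 genes with an H3K4me3 peak at the TSS in at least 3 gastrocnemius libraries, whose median level was 14.8 RPM per kb, 17.5% lay below Myh4, 9.74% below Myh1 and 8.88% below Myh2. Of 16435 such genes for H3K27ac (median 3.81) the shares were 31.4%, 24.5% and 19.4%. The spread between animals was wide in H3K4me3, with a coefficient of variation of 33.7% at Myh2, 32.8% at Myh1 and 26.0% at Myh4 against a median of 20.9% over genes called in every library. In H3K27ac it was 22.6%, 16.4% and 23.1%, around the median of 20.8%.

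The signal reached into the genes as broad domains. The H3K4me3 peak over the start was 4.60 to 19.2 kb wide at Myh4 (median 8.70), 2.60 to 11.2 kb at Myh1 (7.60) and 4.80 to 10.6 kb at Myh2 (8.0). The H3K27ac peak at Myh4 was 12.2 to 40.6 kb wide (24.2). Over the bodies, H3K4me3 ran from 0.293 through 1.08 to 3.63 RPM per kb at Myh4 (1.36 ± 0.919), from 0.176 through 0.751 to 1.28 at Myh1 (0.688 ± 0.360) and from 0.466 through 0.947 to 1.73 at Myh2 (0.965 ± 0.381, n = 10 each), with 0 of 9 cortex libraries called. The first of 5 equal parts of the body held 68.3%, 76.8% and 74.6% of these reads.

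**Figure D2:**
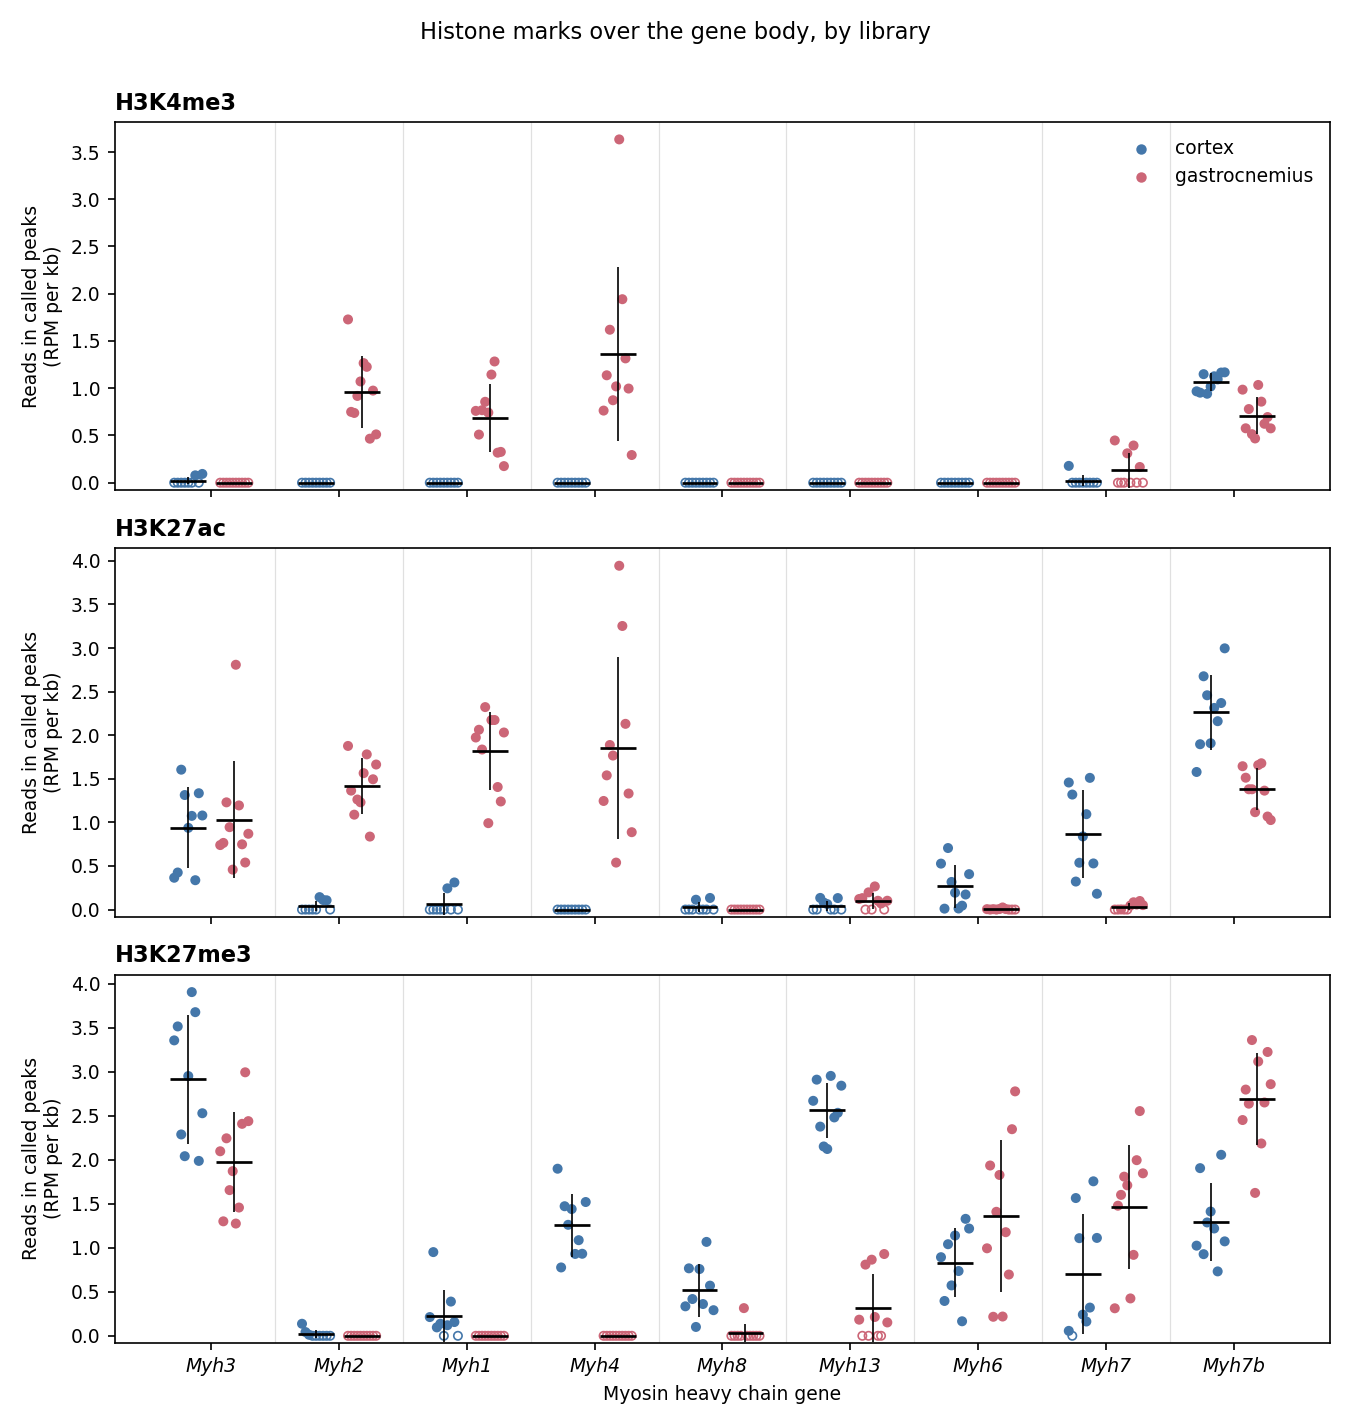
Reads in called peaks over the gene body (RPM per kb, linear axis from 0), drawn for the same genes, marks and libraries as the levels at the start, with open points for libraries without a called peak and bars for mean and SD. H3K4me3 and H3K27ac over Myh2, Myh1 and Myh4 were higher in gastrocnemius without overlap between the tissues. H3K27ac over Myh7 and H3K27me3 over Myh4 and Myh13 were higher in cortex, also without overlap.

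Over the bodies H3K27ac ran in gastrocnemius from 0.539 through 1.65 to 3.94 RPM per kb at Myh4, from 0.991 through 2.0 to 2.32 at Myh1 and from 0.837 through 1.43 to 1.88 at Myh2. Cortex had no body peak at Myh4, peaks in 2 of 9 libraries at Myh1, the highest 0.311, and in 3 at Myh2, the highest 0.143, so the tissues did not overlap. The fitted log2 difference (gastrocnemius minus cortex) was 5.01 (SE 0.81, edgeR, adjusted p = 1.91e-05) at Myh2 and 4.72 (SE 0.93, adjusted p = 0.000169) at Myh1. Of the 8 members tested 3 were called higher in gastrocnemius, these 3 genes, where 33% of all genes were, and 3 higher in cortex, where 38.3% were. Myh4 and Myh1, with 0 and 2 cortex libraries called, entered through gastrocnemius, so their part of the count and their p-values are not support for the direction.

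In H3K4me3 the body test covered 5 members, of which 3 were called higher in gastrocnemius (the same 3 genes, with 32.9% of all genes called) and 1 higher in cortex (Myh7b, 29.9%). These 3 entered through gastrocnemius, and their count is not support. Giving each library without a body peak the lowest read density of its own peaks over the whole body turned the H3K4me3 sign at Myh2 (-0.58, adjusted p = 0.0164), Myh1 (-1.07, adjusted p = 0.00304) and Myh4 (-0.09, adjusted p = 0.828), because uncovered bases stay at 0 in libraries with a peak.

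Much of the H3K27ac in the cluster lay before the fast genes. The 67.7 kb between the end of Myh3 and 1 kb before Myh2 (chr11:67102292-67170026) carried 2.72 through 3.35 to 4.66 RPM per kb in gastrocnemius (3.53 ± 0.637, n = 10) and 0.0845 through 0.268 to 0.585 in cortex (0.305 ± 0.185, n = 9). The groups did not overlap. H3K4me3 ran there from 0.224 through 0.897 to 1.95 in gastrocnemius, with no peak in cortex, and H3K27me3 from 0.220 through 0.668 to 1.18 in cortex, with a peak in 1 of 10 gastrocnemius libraries.

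**Figure D3:**
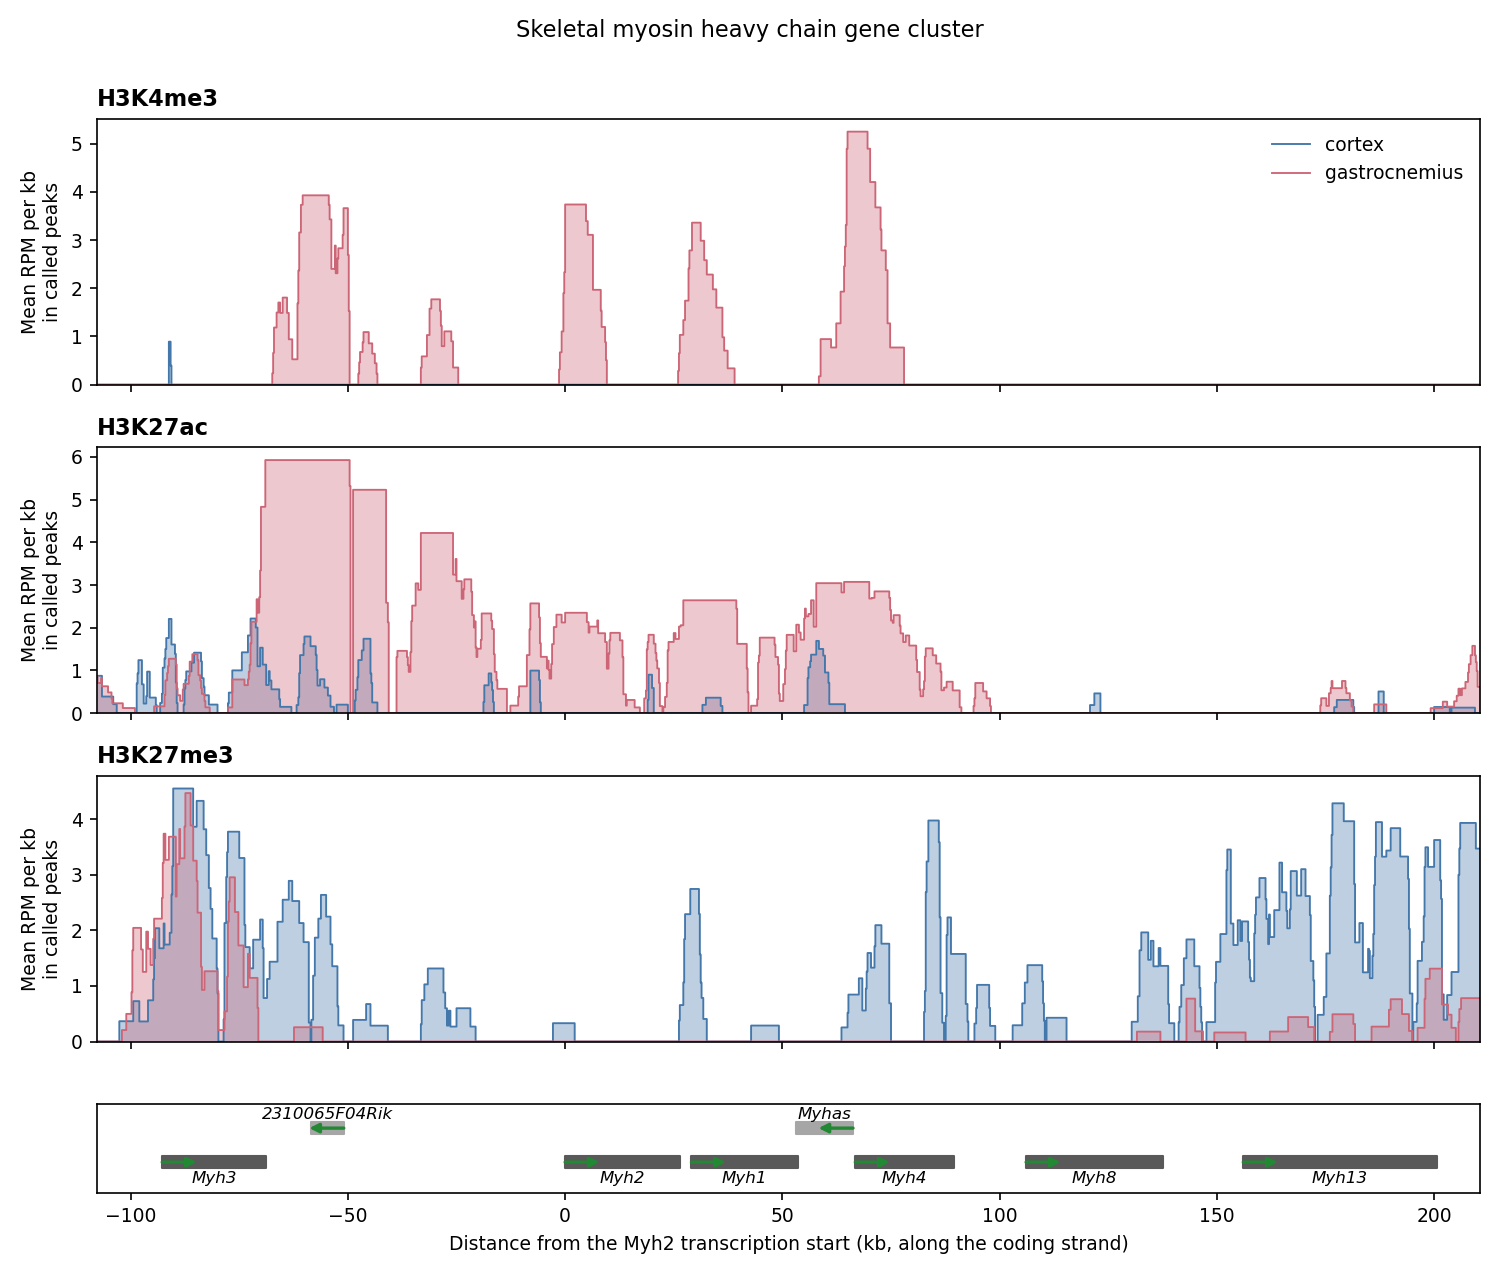
Mean reads in called peaks (RPM per kb) over the skeletal cluster against the distance from the Myh2 start in kb along the coding strand, cortex (mean of 9 libraries) in blue and gastrocnemius (mean of 10) in red, with genes as bars and arrows in the direction of transcription. In gastrocnemius H3K27ac ran from the end of Myh3 through Myh4 and was highest before Myh2, while in cortex the gene bodies with the most H3K27me3 were those of Myh3 and Myh13.

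Sites were defined as merged peaks found in at least 3 gastrocnemius libraries. By level, the first H3K27ac site was intergenic (chr11:67122201-67130400, 5.02 ± 0.994 RPM per kb, n = 10) and had peaks in 7 of 9 cortex libraries at a mean of 0.663. The second (chr11:67093401-67121600, 4.61 ± 0.992) spanned the end of Myh3 and the gene 2310065F04Rik, and the third (chr11:67132201-67157600, 2.67 ± 0.679) was intergenic. The fourth (chr11:67193601-67213200, 2.22 ± 0.463) held the start of Myh1 and the next (chr11:67213801-67262200, 1.95 ± 0.760) those of Myh4 and of Myhas, an antisense RNA whose start is 531 bases from that of Myh4. Peaks carry no strand, so Myhas and Myh4 cannot be told apart. The 3 highest H3K4me3 sites had like levels, 2.70 ± 0.960 at the Myh2 start (chr11:67169601-67180600), 2.70 ± 1.89 at Myh4 and Myhas (chr11:67229401-67249000) and 2.70 ± 1.26 at the start of 2310065F04Rik (chr11:67103601-67121400), followed by 1.87 ± 0.805 at Myh1 (chr11:67197001-67210000) and 1.06 ± 1.10 at an intergenic site (chr11:67137801-67146400, 7 of 10 libraries).

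Across the 293.3 kb from the start of Myh3 to the end of Myh13, H3K27ac peaks covered 46.0 ± 6.82% of the bases in gastrocnemius and 9.73 ± 5.38% in cortex. H3K4me3 covered 14.5 ± 4.76% and 0.0379 ± 0.0771%. H3K27me3 covered 7.01 ± 5.68% in gastrocnemius and 30.6 ± 7.57% in cortex (SD, n = 10 and 9).

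H3K27me3 was absent from the calls at the fast genes in gastrocnemius. At the Myh1 start it was called in 7 of 9 cortex libraries, at 0 through 2.66 to 4.55 RPM per kb, and in 0 of 10 gastrocnemius libraries (Fisher's exact test, adjusted p = 0.0131), with cortex replicates 5 and 9 uncalled. Without the lowest-scoring 25% of peaks this call was lost (adjusted p = 0.283). At Myh4 it was called in 4 of 9 (replicates 1, 3, 4 and 9, up to 2.94) and 0 of 10 (Fisher's exact test, adjusted p = 0.271), and at Myh2 in 1 of 9 and 0 of 10. Both members called in this test were higher in cortex, Myh1 and Myh13, against 3.27% of all genes, and none was higher in gastrocnemius, against 4.4%.

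On reads, 4 of the 8 members tested at the TSS were called higher in cortex (22.4% of all genes), Myh1 (adjusted p = 0.000736), Myh4 (0.0123), Myh8 (0.0110) and Myh13 (0.0993), and 2 higher in gastrocnemius (25.2%), Myh7 and Myh7b. With the animal as a block Myh1 still passed (0.0961), while Myh4 (0.149), Myh8 (0.148) and Myh13 (0.103) did not. The same 3 did not pass when libraries without a peak were set to their lowest peak density (adjusted p = 0.691, 0.791 and 0.332), and the call of Myh13 was lost without any 1 of 15 of the 19 libraries (0.123 to 0.140), with RLE factors (0.111) and with DESeq2 (0.122). All 4 called higher in cortex entered the test through cortex, with at most 1 gastrocnemius library called, and Myh7b entered through gastrocnemius, so these counts are not support. Over the Myh4 body, cortex ran from 0.777 through 1.26 to 1.90 RPM per kb (1.26 ± 0.359, 9 of 9 called) and no gastrocnemius library was called (edgeR, adjusted p = 8.53e-09, or 0.0562 with the animal as a block). The bodies of Myh4, Myh1 and Myh2 entered this test through cortex, so the filter fixed their direction. Over the bodies of Myh1 (7 of 9, up to 0.951) and Myh2 (3 of 9, up to 0.137) the cortex level was lower, and their calls (adjusted p = 0.0012 and 0.0185) were lost with the animal as a block (0.101 and 0.154), that of Myh2 also with DESeq2 (0.233). With libraries lacking a peak set to their lowest peak density over the whole body, the direction turned at Myh1 (1.62, adjusted p = 0.0242), Myh4 (0.73, adjusted p = 0.00118), Myh8 (1.95, adjusted p = 0.00016) and Myh2 (0.60, adjusted p = 0.437). Uncovered bases stay at 0 in libraries with a peak here too, so this setting cannot settle the direction.

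Myh8, the perinatal gene, had no peak of any of the marks at its start in all 10 gastrocnemius animals. In cortex its start had H3K27me3 in 4 of 9 libraries, at 3.42, 2.63, 2.22 and 1.02 RPM per kb in replicates 1, 2, 6 and 8. H3K27me3 over its body ran in cortex from 0.101 through 0.418 to 1.07 (9 of 9 called) and was called in gastrocnemius in 1 library, at 0.315 (fitted log2 difference -3.55, SE 1.39, edgeR, adjusted p = 0.0394, with the gene entering through cortex and the sign turning to 1.95 with uncalled libraries at their lowest peak density). That library lay within the cortex range. H3K27ac over the body was called in 2 cortex libraries only, up to 0.133.

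Myh13, the extraocular gene, carried H3K27me3 along much of its body in cortex, where peaks covered 53.1% to 82.98% of it. Its body ran from 2.12 through 2.53 to 2.95 RPM per kb in cortex (2.56 ± 0.310, 9 of 9 called) and from 0 through 0.167 to 0.929 in gastrocnemius (0.315 ± 0.391, 6 of 10), without overlap (fitted log2 difference -2.87, SE 0.98, edgeR, adjusted p = 0.0195). The 6 called gastrocnemius libraries were the 6 deepest, with 5602259 to 18247332 reads in peaks against 2994888 to 3923839 in the other 4, and the part of depth was not tested. Of 5 equal parts of the body each held 15.8% to 24.7% of the cortex reads, and the coefficient of variation over cortex animals was 12.1%, with 11.3% of the genes called in every library lying below it. At the start it was called in 7 of 9 cortex libraries, up to 4.02, and in 1 of 10 gastrocnemius libraries, replicate 5, at 1.22. The call by Fisher's exact test (adjusted p = 0.0715) was lost when any 1 of 16 of the 19 libraries was left out (0.142 to 0.190), all but cortex replicates 6 and 8 and gastrocnemius replicate 5, and without the lowest-scoring 25% of peaks (0.210). Body H3K27ac was low in both tissues, called in 4 of 9 and 7 of 10 libraries and at most 0.266 (log2 difference 1.06, SE 1.28, adjusted p = 0.480).

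Myh3, the embryonic gene, carried H3K27me3 in both tissues. At its start, called in 5 of 9 cortex and 9 of 10 gastrocnemius libraries, it ran from 0 through 1.90 to 4.88 RPM per kb in cortex and from 0 through 3.22 to 4.47 in gastrocnemius (log2 difference 0.67, SE 0.97, adjusted p = 0.613). Over the body it ran from 1.99 through 2.95 to 3.91 in cortex and from 1.28 through 1.98 to 2.99 in gastrocnemius, overlapping and lower on average in gastrocnemius (-0.55, SE 0.19, adjusted p = 0.0227). Its start was also called for H3K27ac in 7 of 9 cortex libraries, up to 1.6, and 5 of 10 gastrocnemius libraries, up to 1.58 (-1.06, SE 1.22, adjusted p = 0.496). Body H3K27ac was 0.941 ± 0.466 in cortex and 1.03 ± 0.672 in gastrocnemius (0.09, SE 0.35, adjusted p = 0.835), and 54.5% of the gastrocnemius reads lay in the last of 5 parts, next to the acetylated stretch before Myh2.

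Myh7, the slow and beta-cardiac gene, differed from the fast genes in carrying more H3K27ac at its start in cortex than in muscle. Cortex ran from 2.41 through 3.33 to 4.60 RPM per kb (3.31 ± 0.676, 9 of 9 called) and gastrocnemius from 0 through 1.28 to 1.87 (1.02 ± 0.690, 8 of 10, replicates 2 and 4 uncalled), without overlap. The fitted log2 difference was -1.41 (SE 0.55, edgeR, adjusted p = 0.0384), and it was -1.80 with the animal as a block (adjusted p = 0.103) and -0.85 with only the S code libraries (adjusted p = 0.339). The calls did not pass Fisher's exact test (adjusted p = 1), but did without the lowest-scoring 25% of peaks (0.0337). In cortex Myh7 was above Myh3 in 9 of 9 libraries (exact sign-flip test, adjusted p = 0.00391). In gastrocnemius it did not differ from Myh7b beyond the spread (exact sign-flip test, adjusted p = 0.695). Of the 6 members tested for H3K27ac at the TSS, Myh7 was the 1 called higher in cortex (31.6% of all genes), and 3 were called higher in gastrocnemius (24.8%), Myh2, Myh1 and Myh4, which entered through gastrocnemius and are not support.

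Over the Myh7 body, H3K27ac ran in cortex from 0.181 through 0.839 to 1.51 RPM per kb (9 of 9 called) and in gastrocnemius from 0 through 0.0240 to 0.0982 (6 of 10), without overlap (log2 difference -4.71, SE 0.83, adjusted p = 5.06e-05). The first of 5 parts of the body held 60.6% of the cortex reads and the last 26.0%. Giving libraries without a body peak their lowest peak density ended this call (adjusted p = 0.257).

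At the same start H3K27me3 was the higher mark in muscle. It was called in 10 of 10 gastrocnemius libraries, from 2.53 through 4.06 to 5.37 RPM per kb (4.05 ± 0.819), and in 4 of 9 cortex libraries, at 2.81, 1.84, 1.21 and 0.274 in replicates 3, 4, 8 and 9. Only cortex replicate 3 reached the gastrocnemius range. The fitted log2 difference was 2.43 (SE 0.93, edgeR, adjusted p = 0.0397), or 2.38 without the S code libraries (adjusted p = 0.191), and the calls gave adjusted p = 0.115 by Fisher's exact test, or 0.0834 to 0.0863 without any 1 of those 4 cortex libraries and 0.0457 without the lowest-scoring 25% of peaks. In gastrocnemius its coefficient of variation was 20.2%, and 0.962% of the genes called in every library lay below it, where the median was 29.6%. Over the body the difference did not pass (1.00, SE 0.73, adjusted p = 0.275).

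H3K4me3 was called at the Myh7 start in 4 of 10 gastrocnemius libraries, at 1.24, 0.654, 2.58 and 1.04 RPM per kb in replicates 1, 5, 7 and 9, and in 0 of 9 cortex libraries (Fisher's exact test, adjusted p = 1). On reads the 5 members tested at the TSS, Myh2, Myh1, Myh4, Myh7 and Myh7b, were called higher in gastrocnemius and 0 higher in cortex, where 27.7% and 32% of all genes were. Each of the 5 had no cortex peak and entered the test through gastrocnemius, so their count is not support. For Myh7 the adjusted p was 0.00894, or 0.259 with the animal as a block. Over the body it was called in 4 gastrocnemius and 1 cortex libraries (log2 difference 2.59, SE 1.77, edgeR, adjusted p = 0.221). With the title number as a block the difference was 5.20 and passed (adjusted p = 0.0627).

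Myh6, the alpha-cardiac gene, had H3K27me3 at its start in all 19 libraries and neither of the other marks there in any. Cortex ran from 2.45 through 3.49 to 4.85 RPM per kb (3.53 ± 0.721, n = 9) and gastrocnemius from 0.340 through 4.0 to 5.53 (3.61 ± 1.74, n = 10), overlapping (log2 difference -0.02, SE 0.29, adjusted p = 0.971). The sign of this value near 0 changed with the setting. The body did not differ either (0.72, SE 0.48, adjusted p = 0.230). In cortex the first of 5 parts held 50.3% of the body reads, and in gastrocnemius the first and the last held 31.0% and 30.1%.

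**Figure D4:**
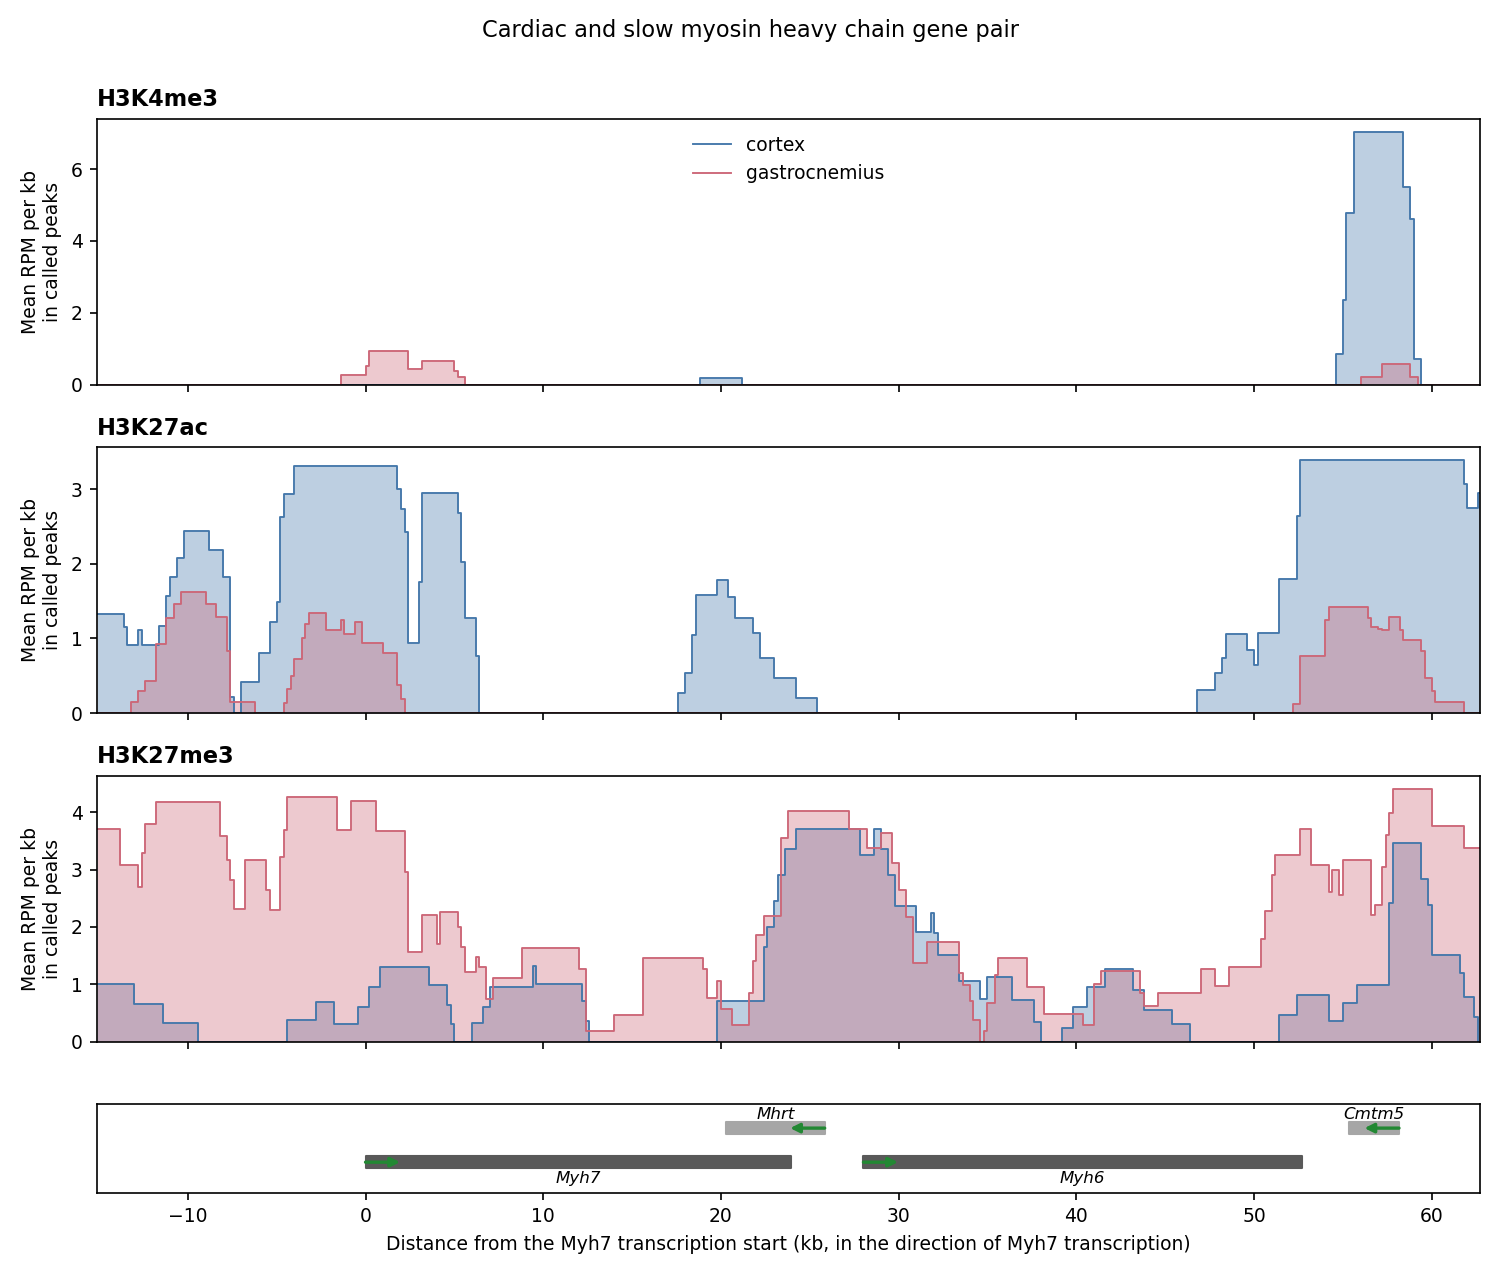
Mean reads in called peaks (RPM per kb) over Myh7 and Myh6 against the distance from the Myh7 start in kb in the direction of transcription, cortex (mean of 9 libraries) in blue and gastrocnemius (mean of 10) in red, with genes as bars and arrows in the direction of transcription. H3K27me3 stood over the Myh6 start in both tissues, and over the Myh7 start it was higher in gastrocnemius while H3K27ac was higher in cortex.

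H3K27ac over the Myh6 body was called in 9 of 9 cortex and 5 of 10 gastrocnemius libraries (0.265 ± 0.244 against 0.00458 ± 0.0074 RPM per kb, log2 difference -5.80, SE 1.02, adjusted p = 5.04e-05). The last of 5 parts held 93.8% of the cortex reads and 100% of those in gastrocnemius, at the side of the neighbouring gene Cmtm5. With libraries lacking a body peak at their lowest peak density the sign turned (0.93, adjusted p = 0.463). Mhrt, a noncoding RNA on the opposite strand that overlaps Myh7, starts 2180 bases from the Myh6 start.

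The hairpins inside these genes differed in the peaks that lay over them. Mir208a (chr14:54949060-54949142, in Myh6) lay under H3K27me3 in 1 of 9 cortex and 3 of 10 gastrocnemius libraries. Mir208b (chr14:54975700-54975776, in Myh7), which shares its seed, lay under H3K27ac in 6 of 9 and 0 of 10, under H3K27me3 in 0 of 9 and 4 of 10 and under H3K4me3 in 1 of 9 and 0 of 10. Mir499 (chr2:155622880-155622958, in Myh7b) lay under H3K27me3 in 5 of 9 and 8 of 10 and under H3K27ac in 0 of 9 and 3 of 10.

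Myh7b was the member with H3K4me3 in every library of both tissues, inside the gene and, in cortex, not at its annotated start. One stretch with peaks in 9 of 9 cortex and 10 of 10 gastrocnemius libraries (chr2:155610801-155616000) reached to exon 7 and the other (chr2:155625801-155631800), with peaks in as many libraries, spanned exons 23 to 35. In the first the level was 1.61 ± 0.158 RPM per kb in cortex and 1.75 ± 0.572 in gastrocnemius. In the second it was 2.52 ± 0.306, from 2.05 to 2.93, in cortex and 1.38 ± 0.477, from 0.747 to 2.02, in gastrocnemius, without overlap.

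Over the whole Myh7b body, H3K4me3 ran from 0.941 through 1.09 to 1.17 RPM per kb in cortex and from 0.468 through 0.659 to 1.03 in gastrocnemius, overlapping and lower in gastrocnemius (log2 difference -0.75, SE 0.16, edgeR, adjusted p = 0.000392). H3K27ac ran from 1.58 through 2.31 to 3.0 in cortex and from 1.03 through 1.38 to 1.68 in gastrocnemius (-0.75, SE 0.13, adjusted p = 2.83e-05). H3K27me3 had the opposite direction, from 0.732 through 1.22 to 2.06 in cortex and from 1.62 through 2.72 to 3.36 in gastrocnemius (1.02, SE 0.19, adjusted p = 0.000275). It was the 1 member of 9 tested for body H3K27me3 that was called higher in gastrocnemius (27.1% of all genes), and 6 were called higher in cortex (28.9%), or 2 with uncalled libraries at their lowest peak density. Of the 6, Myh2, Myh1, Myh4 and Myh8 entered through cortex, so the count is not support. The last of 5 parts of the body, which the end of Trpc4ap overlaps, held 33.4% of the H3K27ac reads in cortex and 24.5% in gastrocnemius.

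**Figure D5:**
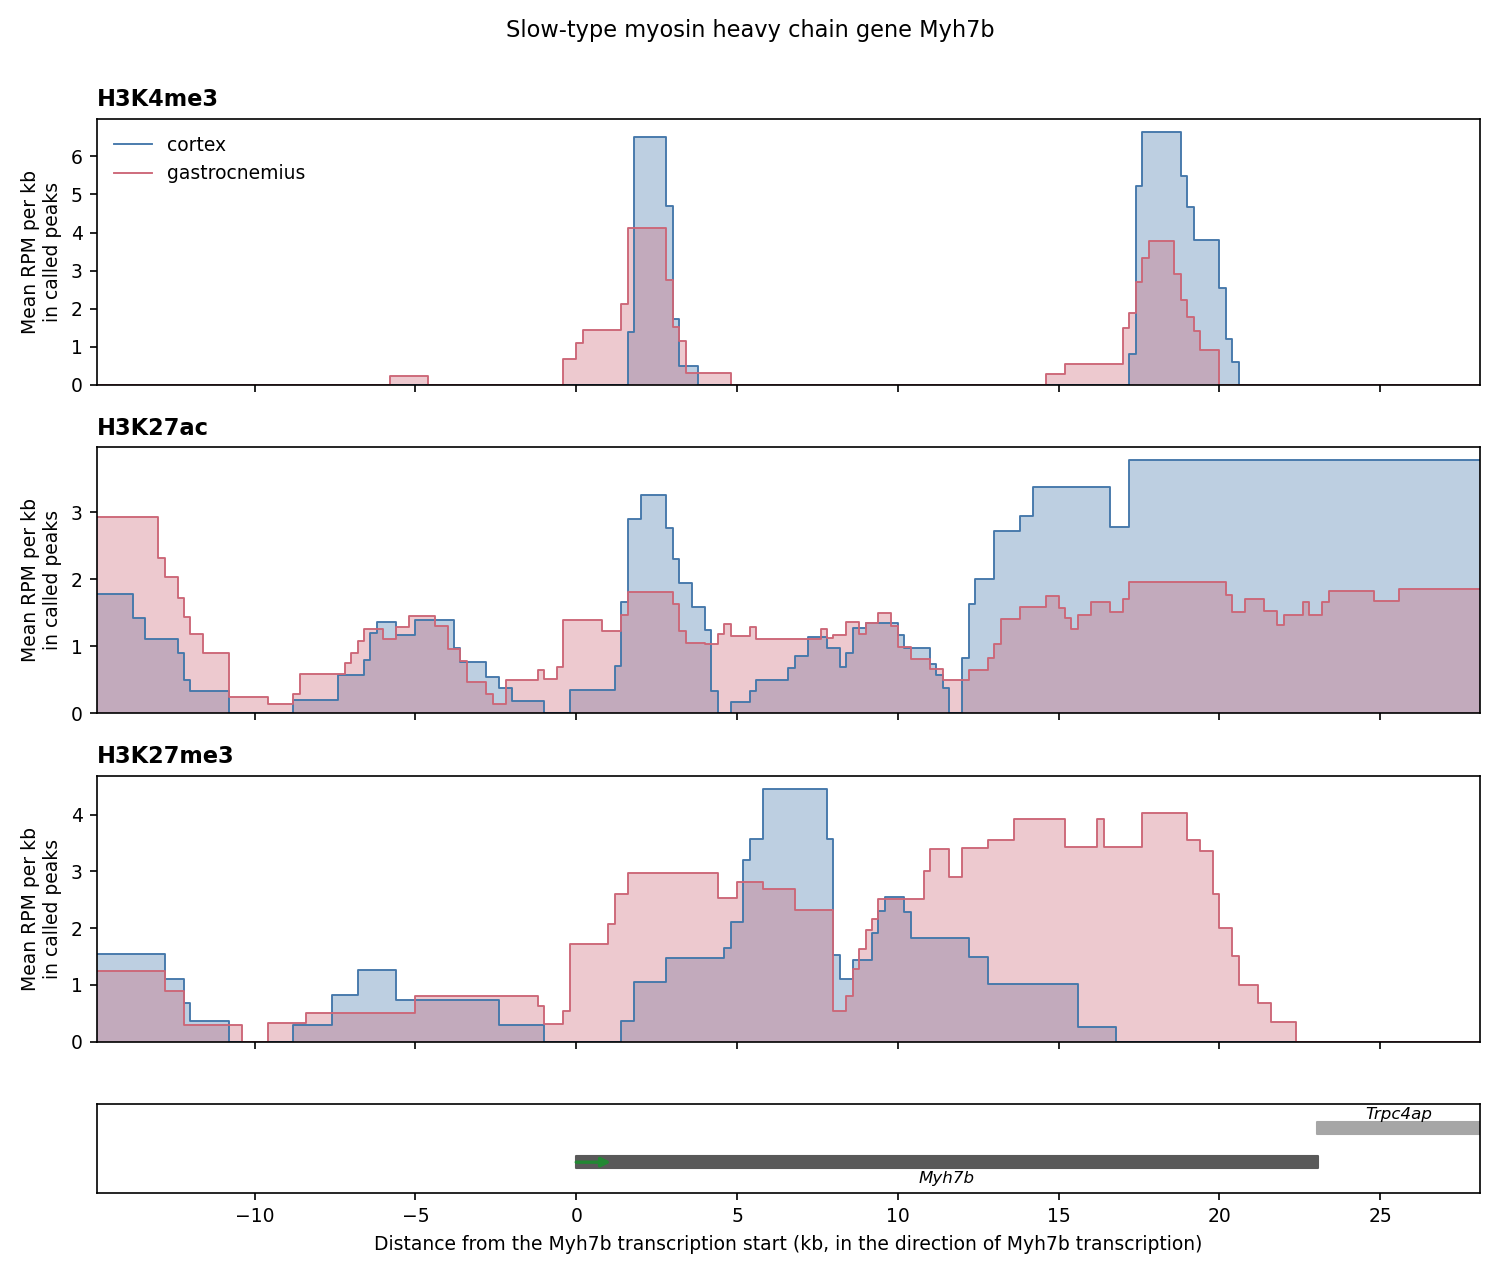
Mean reads in called peaks (RPM per kb) over Myh7b against the distance from its start in kb in the direction of transcription, cortex (mean of 9 libraries) in blue and gastrocnemius (mean of 10) in red, with genes as bars. Both H3K4me3 stretches were present in each tissue, and only gastrocnemius libraries, 4 of 10, had an H3K4me3 peak within 1 kb of the annotated start.

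At the annotated Myh7b start, H3K4me3 was called in the same 4 gastrocnemius replicates as at Myh7 (1, 5, 7 and 9, at 2.21, 2.16, 2.65 and 1.43 RPM per kb) and in no cortex library (Fisher's exact test, adjusted p = 1, and edgeR, adjusted p = 0.00628, or 0.141 with the animal as a block and 0.120 within 2.5 kb, with the gene entering through gastrocnemius). H3K27ac was called in 8 of 10 gastrocnemius libraries, from 0 through 1.33 to 1.91, and in cortex in replicate 4, at 1.97. The calls passed Fisher's exact test (adjusted p = 0.0612), but not when any 1 of 16 of the 19 libraries was left out (0.153 to 0.167), all but cortex replicate 4 and gastrocnemius replicates 4 and 10. The calls did not pass Fisher's exact test within 2.5 kb (adjusted p = 1), without the lowest-scoring 25% of peaks (0.184) or without the S code libraries (0.296) either. The reads did not pass (2.59, SE 1.38, edgeR, adjusted p = 0.128), and the size of the difference changed with the setting. They passed with the animal (7.68, adjusted p = 0.00948) or the title number (7.87, 0.00474) as a block and with DESeq2 (4.03, 0.0094). They also passed with uncalled libraries at their lowest peak density (0.47, 0.0122), and without cortex replicate 4 (8.44, 0.00032) or gastrocnemius replicate 10 (2.74, 0.0995). H3K27me3 was called in 6 of 10 gastrocnemius libraries (replicates 3, 5, 6, 8, 9 and 10, up to 3.13), among them the 4 deepest, and in no cortex library (Fisher's exact test, adjusted p = 0.115, and edgeR, adjusted p = 0.00687, or 0.147 with the animal as a block, 0.684 with uncalled libraries at their lowest peak density and 0.111 within 2.5 kb). The part of depth in this was not tested.

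Marks were set side by side in the libraries of the same animal. In gastrocnemius, H3K4me3 and H3K27ac lay together at the starts of Myh2, Myh1 and Myh4 in 10 of 10 animals, with no H3K27me3. At Myh7, H3K27ac and H3K27me3 were both called in 8 of 10 animals in gastrocnemius and 4 of 9 in cortex, and all 3 marks in 4 animals in gastrocnemius. At Myh7b both were called in 5 of 10 and all 3 marks in 2, and at Myh3 both in 4 of 9 and 5 of 10. No single peak covered the starts of 2 members.

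Over the 57 libraries, the TSS reads (log2 of RPM plus 1) most like those of Myh4 among 22560 other genes were those of Myhas (r = 0.999), which shares its window, Myf6, a myogenic transcription factor (r = 0.958), and Fabp4, a fatty acid binding protein (r = 0.958). Myf6 and Fabp4 had H3K4me3 and H3K27ac peaks at the TSS in all 10 gastrocnemius libraries and H3K27me3 in 2 of 9 cortex and 0 of 10 gastrocnemius libraries, and Myf6 also had H3K4me3 in 6 of 9 cortex libraries. The 3 most like Myh7 were Mir6537 (r = 0.819), 4831407H17Rik (r = 0.812) and Mir346 (r = 0.808), each with H3K27ac in 9 of 9 cortex and H3K27me3 in 10 of 10 gastrocnemius libraries and no H3K4me3 in either. The libraries share marks, tissues and animals, and these values are descriptions.

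The known partners of the fast and the slow chains were counted in the same tests. Of 12 genes known for fast fibres, such as the light chain Mylpf, the calcium pump Atp2a1 and Actn3, 9 were called higher in gastrocnemius for H3K4me3 at the TSS, 1 lower and 2 not. For H3K27ac the counts were 11, 0 and 1, and for H3K27me3, with 6 tested, 0, 5 and 1. Over all genes tested, 27.7% were called higher and 32% lower in gastrocnemius for H3K4me3, 24.8% and 31.6% for H3K27ac, and 25.2% and 22.4% for H3K27me3. Partners called in fewer than 3 libraries of a tissue entered the tests through the other, so these counts are descriptions. The median gene of the list had 12.2 RPM per kb of H3K4me3 in gastrocnemius and 0 in cortex, beside 14.1 and 17.9 over all genes tested. Of 12 genes known for slow fibres, partners of Myh7, 11 were tested for H3K4me3, 10 being higher in gastrocnemius and 1 lower. Their counts were 9, 2 and 1 for H3K27ac and, with 7 tested, 0, 3 and 4 for H3K27me3, and their median H3K4me3 level in gastrocnemius was 3.20.

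The 4 conventional myosin heavy chain genes outside striated muscle had H3K4me3 at the TSS in every library of both tissues. So did 13419 autosomal genes, out of 26089 genes on the autosomes and X. Myh9 (23.3 ± 3.29 RPM per kb in cortex against 14.5 ± 2.86 in gastrocnemius) and Myh10 (36.4 ± 3.59 against 24.9 ± 6.07), of non-muscle cells, were called higher in cortex, with log2 differences of -0.39 (SE 0.10, edgeR, adjusted p = 0.00184) and -0.26 (SE 0.10, adjusted p = 0.0294). Myh11 of smooth muscle (3.59 ± 0.567 against 4.14 ± 0.398) and Myh14 (5.84 ± 0.970 against 9.64 ± 1.47) were called higher in gastrocnemius, with 0.51 (SE 0.14, adjusted p = 0.00318) and 1.03 (SE 0.11, adjusted p = 3.52e-08). Myh4, at 5.25 in gastrocnemius, thus lay between Myh11 and Myh14 there.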

How the data were processed

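Chromatin immunoprecipitation libraries of H3K4me3, H3K27ac and H3K27me3 from PSAPP cortex and gastrocnemius were used as the peak lists the authors deposited. The submitters' processing notes name BWA, SAMtools and mm10. Peaks were called with epic2 in each library on its own (version not given in the sources used here). The read count of each peak, as deposited by the authors, is neither normalized nor corrected for input. The peak score deposited by the authors was used only to rank peaks. The deposited names of the gastrocnemius libraries carry a mark for uniquely mapped reads that those of cortex lack, which cannot be told apart from tissue.

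A peak's reads were shared out by overlap with each window and scaled to 1 M reads in autosomal peaks. Presence of a peak was tested with the two-sided Fisher's exact test over 26089 genes. Reads were tested with edgeR 4.0.16 (quasi-likelihood, TMM factors) on genes with a peak in at least 3 libraries of a tissue. Benjamini-Hochberg adjustment and a threshold of 0.1 were used throughout. Neighbouring levels were compared with a two-sided exact sign-flip test. The tests were checked on simulated data. Log2 differences are gastrocnemius minus cortex.

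Same-numbered libraries do not always come from the same animal. The animal code in the deposited names pairs the tissues of 9 animals, and the correlations of their deviations ran from -0.0953 to 0.0980. For animal A75 the S stands in the gastrocnemius names only, and the pairing leaves it aside. The 9 members, all named, and the lists of partner and marker genes were chosen with earlier results of these data known. The genes most like Myh4 and Myh7 are the first 3 by correlation. Alternatives were DESeq2 1.42.0, other scalings, filters, windows and peak sets, the block and leaving out libraries. P-values of the main fits of reads rest on the spread between libraries, with the tissues of an animal not paired. Those of Fisher's exact test rest on the counts of called libraries only. Those of the sign-flip test rest on differences within libraries.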

Additional observations from a re-analysis of the deposited data

Results flagged for a closer look

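In gastrocnemius replicate 6, H3K4me3 over the Myh4 body stood at 3.63 RPM per kb, with the next library at 1.94, and H3K27ac over the Myh3 body stood at 2.81, with the next at 1.23. Both values lay apart from the other 9 libraries by Dixon's criterion. Chance marks about 1 in 20 groups in this way, and 34 groups were examined. The H3K27ac library of this animal was the deepest, with 27.3 M reads in peaks, and the part of depth in the value was not tested.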

How the results depend on the processing

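A library without a called peak has an unknown level below the caller's limit. With such libraries at their lowest peak density, the members higher in gastrocnemius went to 0 for body H3K4me3, 1 for H3K27me3 at the TSS and 4 for body H3K27me3, and those higher in cortex to 3, 1 and 2, and to 1 for body H3K27ac. Signs turned for body H3K4me3 at Myh2 (-0.58), Myh1 (-1.07), Myh4 (-0.0859) and Myh7 (-0.51), for H3K27ac at the Myh3 TSS (0.16) and the bodies of Myh13 (-0.82) and Myh6 (0.93), and for H3K27me3 at the TSS of Myh4 (0.10) and Myh8 (0.0528) and the bodies of Myh2 (0.60), Myh1 (1.62), Myh4 (0.73) and Myh8 (1.95). This setting fills the whole window of an uncalled library and leaves uncovered bases at 0 in the others. Its turns of sign therefore cannot settle a direction.

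With the animal as a replicate block, 3 members stayed higher in gastrocnemius for H3K4me3 and 1 for H3K27me3 at the TSS, and 0 higher in cortex for H3K27ac and 1 for H3K27me3. It changed no member's call on reads other than those given beside the results. With the title number as the block, the counts were 3 and 1 higher in gastrocnemius for H3K4me3 and H3K27me3 and 2 higher in cortex for H3K27me3. Without the S code libraries they were 3 and 0 higher in gastrocnemius, and 0 pairs passed in the H3K4me3 order. In that order too few libraries were left for a single pair to pass. Myh7 and Myh7b for H3K4me3, and Myh7b for H3K27me3, then had a peak in 2 gastrocnemius libraries and were not tested. With only the S code libraries, 3 were higher in gastrocnemius for H3K4me3 and 0 in cortex for H3K27ac and H3K27me3. Myh7 and Myh7b for H3K4me3, and Myh1, Myh4, Myh8 and Myh13 for H3K27me3, had too few called libraries to be tested there. Without the lowest-scoring 25% of peaks, the calls gave 1 member higher in cortex for H3K27ac, 1 higher in gastrocnemius for H3K27me3 and 0 higher in cortex. A window of 2.5 kb gave 1 member higher in gastrocnemius for H3K27me3 and 2 passing pairs in its cortex order, and no filter gave 2 members higher in cortex for body H3K4me3. Leaving out 1 library gave 0 to 1 members called higher in gastrocnemius and 1 to 2 higher in cortex for H3K27me3 peaks. The cause of the other changes was not tested.

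The difference near 0 at the Myh6 TSS in H3K27me3 turned positive with RLE factors (0.0517), DESeq2 (0.0507), no TMM factors (0.0157), a window of 2.5 kb (0.0466) and without the S code libraries (0.13), and ran from -0.0898 to 0.121 with 1 library left out. Leaving out the TMM factors, a choice made after seeing the data like the use of only S code libraries, moved the median difference of genes called in every library from -0.04 to -0.33 for H3K4me3 and from -0.03 to -0.29 for H3K27ac at the TSS and from 0.06 to 0.23 for body H3K4me3, and turned no other member's direction.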
